A study of Rattus norvegicus with 18 samples.

Results

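The neurotrophin set described here holds the ligand genes Bdnf and Ntf3 and the receptor genes Ntrk2, Ntrk3, Ngfr and Sort1, across 18 arrays of rat hippocampal neurons. These 6 of 14217 named genes were chosen by symbol, and all probe sets that the array annotation pairs with them were taken separately, which gave 12 of the 31042 probe sets tested. Bdnf and Sort1 had 2 probe sets each, Ntrk2 had 5, and Ntf3, Ntrk3 and Ngfr had 1 each. The study asked which genes respond to the transcription factor MEF2. Dissociated neurons were transduced with a lentivirus on day 3 in culture and received 4-hydroxytamoxifen (4OHT), a ligand of the modified estrogen receptor domain, on day 10. One virus carried MEF2-VP16-ER, a fusion of MEF2 to the viral activation domain VP16 and to an estrogen receptor ligand-binding domain. The control virus carried MEF2deltaDBD-VP16-ER, so that all 6 groups received a VP16-ER fusion, without the DNA-binding domain of MEF2 in control neurons. Each construct was sampled at 0, 1 and 2.5 h of 4OHT, with 3 biological replicates a group per the labels. Because the labels do not say that these came from separate cultures, p-values measure only the spread between these samples. The promoter that drives the virus, the MEF2 family member used and the age of the rats are not given in the sources used here.

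Neurotrophins are secreted as precursors and cleaved to dimeric growth factors. BDNF, made from Bdnf, signals through the receptor tyrosine kinase TrkB (Ntrk2), and neurotrophin-3, made from Ntf3, mainly through TrkC (Ntrk3). The precursors bind the p75 receptor (Ngfr) together with sortilin (Sort1), a sorting receptor that also steers BDNF into the regulated secretory pathway. In hippocampal neurons Bdnf is transcribed from several alternative start sites and is a classic activity-regulated gene.

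The deposited intensities had array medians of 190.4 to 197.0, and no array stood apart by these medians. Changes are differences of log2(intensity + 16), which understate the change of dim probe sets. For each time after ligand, the induction subtracts the change in control neurons since 0 h from that in neurons with MEF2-VP16-ER. A probe set was called where its limma adjusted p (Benjamini-Hochberg over all 31042 probe sets) was under 0.05. Arrays with the same replicate number deviated together, so comparisons at 2.5 h are also given with replicate number as a block. The number of arrays limits the precision, and over all probe sets inductions had a median SE of 0.12. Of 12 neuronal markers 11 lay above the median probe set, as did 8 of 9 measured astrocyte markers and 6 of 10 measured oligodendrocyte and precursor markers. So did 3 of 4 measured Schwann and neural crest markers, which include S100b and Sox10 of the lists just named. Only 2 of 9 microglial and 2 of 9 fibroblast or endothelial markers did. In this bulk RNA, fewer cells of a type and less RNA per cell cannot be told apart.

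Bdnf RNA was higher, and Ntf3 RNA lower, in neurons with active MEF2-VP16-ER at 2.5 h, while none of the 9 receptor probe sets was called. The Bdnf probe set 1368677_at had an induction of 1.63 ± 0.50 log2 units (SE, n = 3 arrays per group), and Ntf3 one of -0.71 ± 0.27. Neither passed the limma test without the block (adjusted p = 0.509 for Bdnf and 0.801 for Ntf3). With replicate number as a block Bdnf rose (SE 0.17, limma adjusted p = 0.000131) and Ntf3 fell (SE 0.13, limma adjusted p = 0.0124). Without the block 0 of 12 members were called against 0.177% of all probe sets, and 3 members against 4.78% of all had an unadjusted p under 0.05. With the block 2 of 12 were called against 0.937%, namely 1 higher against 0.564% and 1 lower against 0.374%. Removing replicate 3 gave Bdnf a call without a block (limma adjusted p = 0.0242). With the block, the Ntf3 call was lost without replicate 1 (limma adjusted p = 0.216) and without replicate 3 (limma adjusted p = 0.315).

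The RefSeq promoter windows printed here belong to the genes that passed with the block, and they show what lies at their annotated starts. Each window runs from 250 bases before to 50 bases after a start in build GRCr8, and capitals mark the only motif match found, TGACG, a core of the cyclic AMP response element (CRE), read on the opposite strand.
Bdnf, the first start, chr3:116619383-116619682, plus strand: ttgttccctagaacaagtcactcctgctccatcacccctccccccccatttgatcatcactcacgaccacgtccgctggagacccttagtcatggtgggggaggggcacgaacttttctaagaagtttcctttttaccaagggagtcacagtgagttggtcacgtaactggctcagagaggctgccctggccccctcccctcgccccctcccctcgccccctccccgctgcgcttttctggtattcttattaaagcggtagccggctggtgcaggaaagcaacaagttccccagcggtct
Bdnf, the fourth start, chr3:116637608-116637907, plus strand: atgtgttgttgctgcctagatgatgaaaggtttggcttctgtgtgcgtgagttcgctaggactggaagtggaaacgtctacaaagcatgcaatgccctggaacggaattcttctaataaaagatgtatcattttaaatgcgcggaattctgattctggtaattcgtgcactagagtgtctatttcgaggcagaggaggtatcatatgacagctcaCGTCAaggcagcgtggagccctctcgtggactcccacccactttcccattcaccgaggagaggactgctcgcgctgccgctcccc
Ntf3, the first start, chr4:160670574-160670873, minus strand: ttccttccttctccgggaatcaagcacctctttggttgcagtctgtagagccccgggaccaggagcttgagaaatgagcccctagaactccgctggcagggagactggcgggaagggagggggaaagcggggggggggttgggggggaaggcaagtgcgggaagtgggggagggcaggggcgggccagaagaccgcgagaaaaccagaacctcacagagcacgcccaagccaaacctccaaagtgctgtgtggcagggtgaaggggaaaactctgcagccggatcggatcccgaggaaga
RefSeq windows were matched for 3 of the 6 genes, 10 windows in all, of which 6 belonged to Bdnf, 3 to Ntf3 and 1 to Sort1. The fourth Bdnf start lies 18225 bases downstream of the first, and the fifth and sixth lie 20169 and 20225 bases downstream of it. Windows of the fifth and sixth overlap. So do those of the first and second Ntf3 starts, which lie 1 base apart. The 10 windows are thus not all separate sequences. Both strands were searched for the MEF2 consensus, for the full CRE, TGACGTCA, and for its core, TGACG, which every full CRE also contains and which was added after the windows were seen. The MEF2 consensus was in 0 of the 10 windows and in 3.29% of 33469 windows of the same length. The full CRE was in 0 of 10 and in 1.83% of all windows. The core was in 1 of 10, at position -35 relative to the fourth Bdnf start, and in 21.2% of all windows. A match describes these letters only, and a window without one leaves the rest of the locus unread. The probe sets were not assigned to a start site.

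The Bdnf probe set 1368677_at read 624.3, 696.8 and 301.0 in replicates 1, 2 and 3 of control neurons at 0 h. Control neurons read 679.0, 546.5 and 294.2 at 1 h and 509.0, 417.0 and 269.5 at 2.5 h. MEF2-VP16-ER neurons read 878.7, 720.9 and 442.3 at 0 h. They read 1537.9, 1416.2 and 967.5 at 1 h and 1843.7, 1636.3 and 1297.1 at 2.5 h. Every MEF2-VP16-ER array at 1 h or 2.5 h was above every array of the other 4 groups. How common that separation is over all probe sets was not counted. Replicate 3 was the lowest in all 6 groups. Group means were 541 ± 211, 507 ± 195 and 398 ± 121 in control neurons at 0, 1 and 2.5 h (SD, n = 3). In MEF2-VP16-ER neurons they were 681 ± 221, 1307 ± 300 and 1592 ± 276 (SD, n = 3). In order, MEF2-VP16-ER at 2.5 h was highest, followed by 1 h and 0 h of that construct and then control at 0, 1 and 2.5 h. Of the 5 gaps between neighbours in that order, 1 exceeded the pooled SD of both groups, that between MEF2-VP16-ER at 1 h and at 0 h.

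Within replicates 1, 2 and 3, the Bdnf intensity at 2.5 h was 2.10, 2.27 and 2.93 times that at 0 h in MEF2-VP16-ER neurons. In control neurons the same ratios were 0.815, 0.598 and 0.896. The change was thus upward in all 3 replicates with MEF2-VP16-ER and downward in all 3 with the control construct, a pattern seen in 2.02% of all probe sets. The change in MEF2-VP16-ER neurons was 1.25 ± 0.36 log2 units (SE, limma adjusted p = 0.204), and it was called with the block (limma adjusted p = 1.63e-05). The groups did not overlap, which held for 5.76% of all probe sets in that direction. In control neurons the change was -0.39 (limma adjusted p = 1.00), and limma called 0 of 12 members and 0% of all probe sets there without the block. At an unadjusted p under 0.05 there were 0 members and 667 probe sets. From 0 h to 1 h in control neurons limma also called 0 of 12 members and 0% of all, with 0 members and 840 probe sets at an unadjusted p under 0.05.

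At 1 h the induction of Bdnf 1368677_at was 1.04 ± 0.50 log2 units (SE) and was not called (limma adjusted p = 0.996). No member was called at that time, against 0.00322% of all probe sets, and 1 member, against 4.70% of all probe sets, had an unadjusted p under 0.05. In MEF2-VP16-ER neurons alone the step from 0 h to 1 h was 0.95, with no overlap between the groups, as in 4.4% of all probe sets in that direction (limma adjusted p = 1.00). That step was called for 0 of 12 members and 0.0354% of all probe sets, and 2 members, against 4.17% of all, had an unadjusted p under 0.05. The difference between the 2.5 h and 1 h inductions was 0.59 and was not called (limma adjusted p = 1.00, or 0.254 with the block). In that comparison 0 of 12 members were called, with or without the block, against 0.0419% of all probe sets (0.399% with the block), and no member, against 3.92% of all, had an unadjusted p under 0.05.

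Before ligand, MEF2-VP16-ER neurons were 0.35 log2 units above control neurons for Bdnf 1368677_at, and the groups overlapped (limma adjusted p = 0.812, or 0.240 with the block). None of the 12 members was called between constructs at 0 h, against 0% of all probe sets, and no member had an unadjusted p under 0.05 while 2736 probe sets on the array did.

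**Figure D1:**
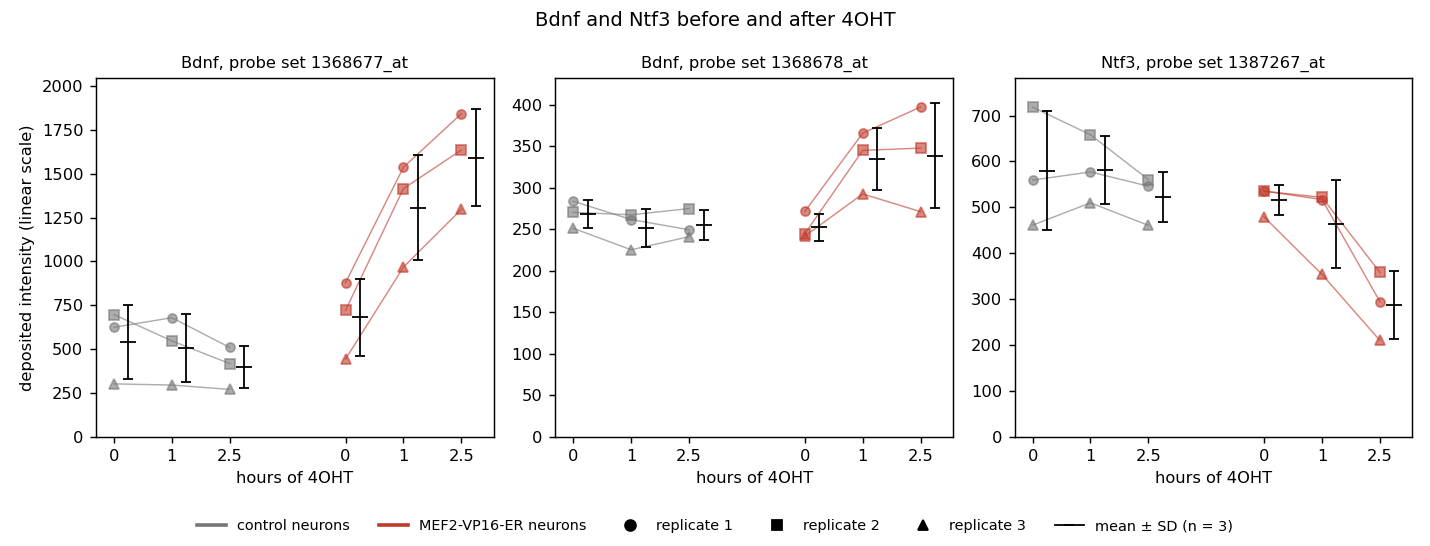
Deposited intensity (y axis, linear scale) of the Bdnf probe sets and of Ntf3 by hours of 4OHT (x axis) in control and MEF2-VP16-ER neurons. Points are single arrays marked by replicate, and lines join arrays of the same construct and replicate number. Black bars give the group mean ± SD (n = 3). Bdnf 1368677_at reaches 1297.1 to 1843.7 in MEF2-VP16-ER neurons at 2.5 h, while Ntf3 is lowest there, at 209.6 to 358.1.

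The second Bdnf probe set, 1368678_at, had smaller changes. Control neurons read 283.5, 270.2 and 250.9 at 0 h, 261.5, 267.2 and 225.1 at 1 h and 249.2, 274.7 and 240.9 at 2.5 h. MEF2-VP16-ER neurons read 271.2, 244.5 and 241.5 at 0 h, 365.6, 344.9 and 292.4 at 1 h and 397.2, 347.6 and 271.0 at 2.5 h. The arrays of MEF2-VP16-ER neurons at 1 h were above all control arrays, whereas at 2.5 h replicate 3 fell back among them. The share of all probe sets separated in that manner at 1 h was not counted. The induction of 1368678_at was 0.46 ± 0.16 log2 units at 2.5 h (SE, limma adjusted p = 0.715, or 0.0571 with the block). At 1 h it was 0.47 ± 0.16 (SE, limma adjusted p = 0.996). In MEF2-VP16-ER neurons the change to 2.5 h was 0.39 (limma adjusted p = 0.239), and with the block it was called (limma adjusted p = 0.00812), although the groups overlapped. That call with the block was lost without replicate 1 (limma adjusted p = 0.108), without replicate 2 (0.245) or without replicate 2 of MEF2-VP16-ER at 0 h (0.0614). In MEF2-VP16-ER neurons from 0 h to 2.5 h, 0 of 12 members were called without the block against 0.789% of all probe sets, and 3, against 6.18% of all, had an unadjusted p under 0.05. With the block 3 of 12 were called against 2.33%, namely both Bdnf probe sets upward against 1.33% and Ntf3 downward against 0.999%.

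Bdnf 1368677_at varied far more between replicates than most probe sets. Its residual SD was 0.484 log2 units, at the 99.1 percentile of all probe sets, and 0.169 once replicate number was a block. Replicate 3 was also the lowest in all 6 groups for Bdnf 1368678_at, for Ntf3, for Ntrk2 1368972_at and for Ntrk3. Summed oligodendrocyte markers were 13937 to 18602 in replicate 3, against 8305 to 10659 in replicate 1 and 8361 to 12290 in replicate 2. Summed astrocyte markers were 51711 to 59346 in replicate 1, 41674 to 44364 in replicate 2 and 44126 to 46927 in replicate 3. The part of this cell makeup in the replicate differences was not tested. No marker of any list was called in any of the comparisons without the block, where Bdnf and Ntf3 were not called either. Marker inductions at 2.5 h ran from -0.57 for Pdgfra to 0.48 for C1qa. Calls with the block were not counted for the markers.

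Ntf3, on probe set 1387267_at, had an induction in the other direction. Control neurons read 559.4, 718.4 and 461.1 at 0 h, 577.2, 658.2 and 509.8 at 1 h and 546.0, 560.4 and 460.6 at 2.5 h. MEF2-VP16-ER neurons read 535.4, 535.1 and 478.9 at 0 h, 516.9, 521.7 and 353.6 at 1 h and 294.3, 358.1 and 209.6 at 2.5 h. All 3 MEF2-VP16-ER arrays at 2.5 h were below every array at 0 h and every control array. Only replicate 3 of MEF2-VP16-ER at 1 h, at 353.6, reached down among them. Over all probe sets, the share set apart from so many groups was not counted. The lowest group mean was 287 ± 74.5, in MEF2-VP16-ER neurons at 2.5 h, against 516 ± 32.5 at 0 h and 522 ± 54.0 in control neurons at 2.5 h (SD, n = 3). Of the 5 neighbouring gaps, 1 exceeded the pooled SD, that of 0.67 log2 units between MEF2-VP16-ER at 1 h and at 2.5 h.

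The Ntf3 intensity at 2.5 h was 0.550, 0.669 and 0.438 times that at 0 h in replicates 1, 2 and 3 of MEF2-VP16-ER neurons, and 0.976, 0.780 and 0.999 times in control neurons. The inductions by replicate were -0.80, -0.21 and -1.13 log2 units, all negative, as in 14.6% of all probe sets, but of unequal size. The change in MEF2-VP16-ER neurons was -0.84 ± 0.19 (SE, limma adjusted p = 0.0588), and with the block it fell (limma adjusted p = 6.03e-05). The groups did not overlap, as in 5.53% of probe sets in that direction. In control neurons the change was -0.13. At 1 h the induction was -0.19 and was not called (limma adjusted p = 0.998), and the step between the inductions at 1 h and 2.5 h was -0.52 (limma adjusted p = 0.140 with the block).

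Receptor RNA showed no called change. For the 9 probe sets of Ntrk2, Ntrk3, Ngfr and Sort1, inductions ran from -0.07 to 0.18 log2 units at 2.5 h and from -0.10 to 0.19 at 1 h. None was called at 2.5 h, with or without the block, and the lowest adjusted p with the block was 0.771 (limma). The 95% intervals reached from -0.57 to 0.76 at 2.5 h over all 9 (with the block, from -0.27 to 0.50). Changes within those limits could go uncalled with 3 arrays a group. Somewhat larger ones could too, since the adjusted p asks for more than a 95% interval that leaves out 0. Bdnf 1368677_at, at 1.63 and not called without the block, is no measure for them. Its SE was 0.50, against 0.09 to 0.31 for the receptor probe sets. Over all 12 members the median induction at 2.5 h was 0.08 with 10 positive, against a median of 0.004 over all probe sets. The positive ones include 5 probe sets of Ntrk2 and 2 of Bdnf, so they are not separate genes. The share of positive probe sets on the array was not counted. In control neurons the members' median change to 2.5 h was -0.07 with 2 positive, and in MEF2-VP16-ER neurons 0.02 with 9 positive. At 1 h the median induction was -0.02 with 6 positive, against -0.02 over all probe sets.

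Ntrk2, the gene of TrkB, was read by 5 probe sets, which do not share a level and were not compared with each other. They were not assigned to transcript forms of the gene. Probe set 1383135_at lay between 3121 and 4758, with a median of 4407 over the 18 arrays. Probe set 1368972_at lay between 1235 and 1617 (median 1443) and 1370687_a_at between 1175 and 1603 (median 1376). Probe set 1397246_at lay between 754 and 1278 (median 1132). Probe set 1370652_at was dim and reached at most 44.7 (median 38.4). That last one sits at the 7.81 percentile of the array by level, where the pseudocount compresses changes, and control neurons at 0 h were its highest group, 0.064 log2 units above the next and beyond the pooled SD of 0.058. In none of the other 4 did any of the 5 neighbouring gaps exceed the pooled SD.

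For Ntrk2 1383135_at the arrays of control neurons averaged 4234 ± 495, 4350 ± 536 and 4121 ± 629 at 0, 1 and 2.5 h (SD, n = 3). Those of MEF2-VP16-ER neurons averaged 4057 ± 480, 3899 ± 686 and 4279 ± 443. Its induction at 2.5 h was 0.12 with a 95% interval of -0.33 to 0.58, or -0.04 to 0.29 with the block. Replicate 2 was the lowest in all 6 groups for this probe set and for 1397246_at. Replicate 2 also had the lowest astrocyte marker sums, and whether that has a part in it was not tested. The inductions of 1368972_at, 1370687_a_at and 1397246_at at 2.5 h were 0.04, 0.06 and 0.09.

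TrkC, read by Ntrk3 1368939_a_at, lay between 143 and 215 (median 188). Its groups averaged 180 ± 23.4 in control and 184 ± 7.04 in MEF2-VP16-ER neurons at 0 h, and 183 ± 18.2 and 195 ± 18.3 at 2.5 h (SD, n = 3). The induction at 2.5 h was 0.05 with a 95% interval of -0.31 to 0.40, or -0.17 to 0.27 with the block.

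The p75 receptor, read by Ngfr 1368148_at, was dim, between 85.6 and 129 (median 99.7). Group means lay between 94.0 ± 7.37 in control neurons at 1 h and 110 ± 20.4 in control neurons at 0 h (SD, n = 3), and MEF2-VP16-ER neurons averaged 103 at each of the 3 times. At 1 h the control arrays, at 85.6 to 99.2, lay just below those with MEF2-VP16-ER, at 99.4 to 106. The share of all probe sets separated in this way was not counted. The 1 h induction of 0.19 was not called (limma adjusted p = 0.996). The induction at 2.5 h was 0.10 with a 95% interval of -0.22 to 0.43.

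Sortilin was read by Sort1 1372728_at, between 1164 and 1518 (median 1314), and by 1371004_at, between 161 and 240 (median 200). Their inductions at 2.5 h were -0.07 (95% interval -0.36 to 0.22) and 0.18 (95% interval -0.20 to 0.55). The intervals of both overlap 0 and each other, and the probe sets differ in level, so no difference between them was tested.

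**Figure D2:**
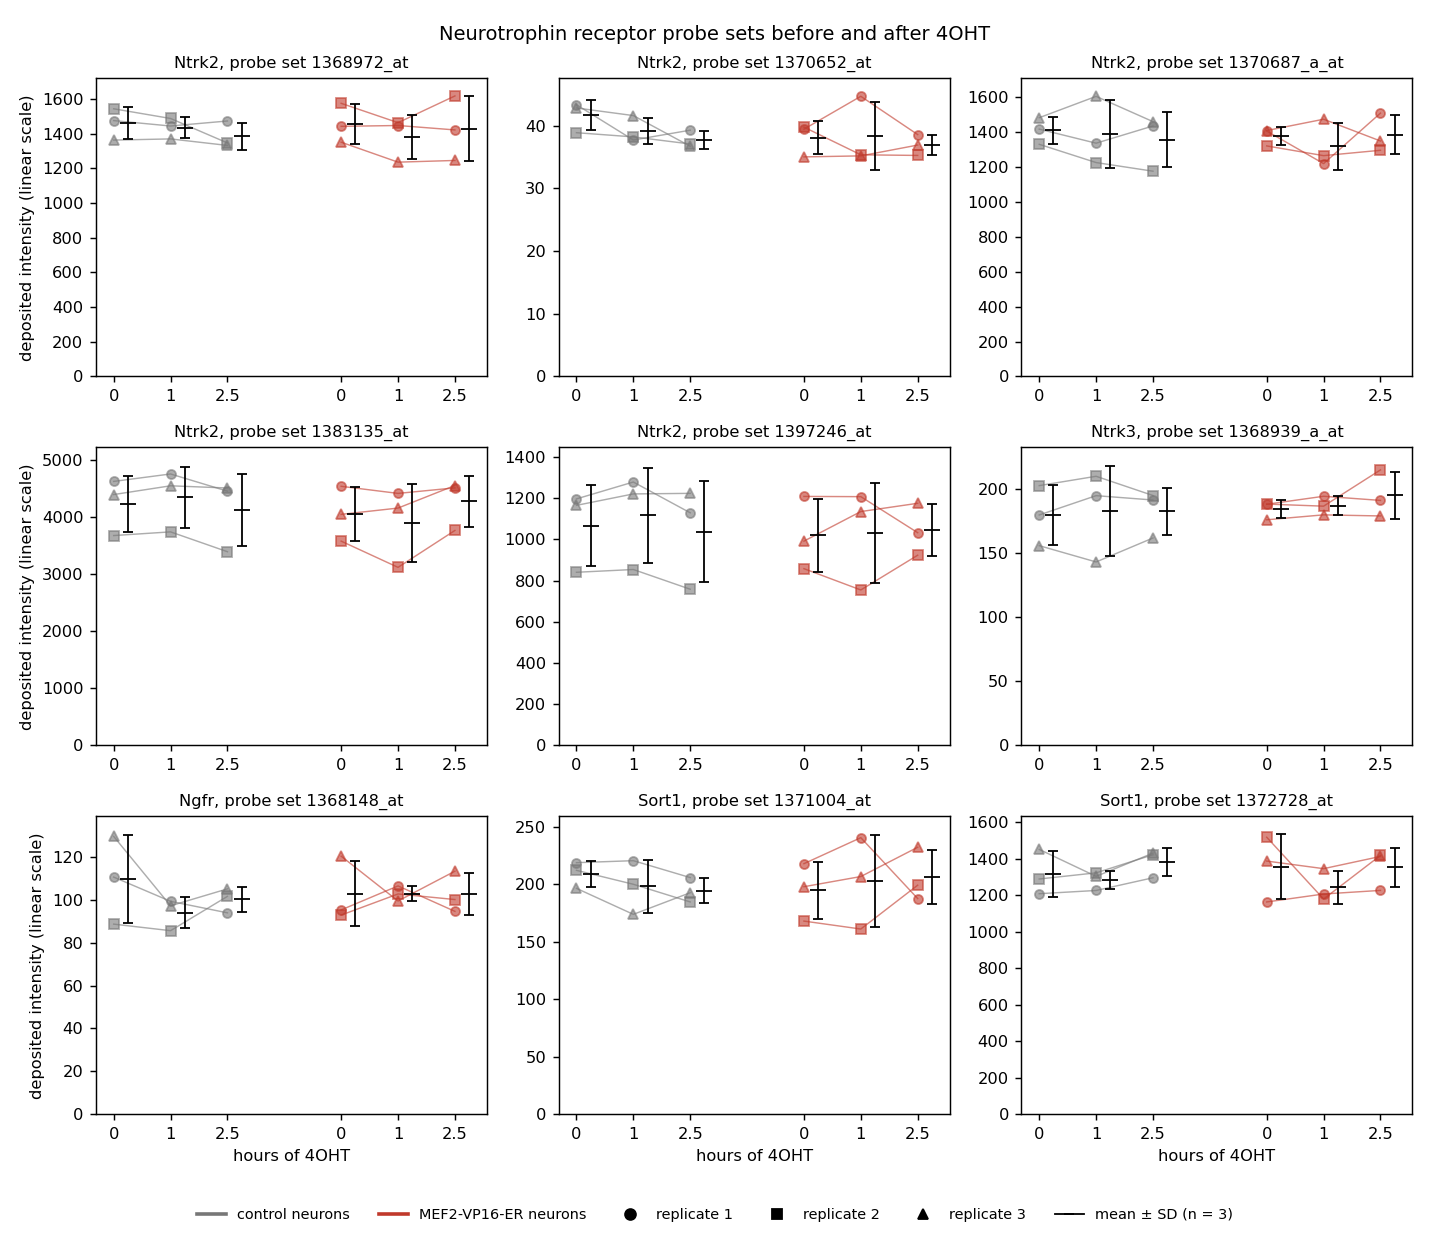
Deposited intensity (y axes, linear scale from 0, a panel for each probe set) of the 9 receptor probe sets by hours of 4OHT (x axis) in control and MEF2-VP16-ER neurons; points are arrays marked by replicate. The constructs overlap at 2.5 h in all 9 panels, and Ntrk2 1383135_at and 1397246_at show replicate 2 lowest in every group.

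**Figure D3:**
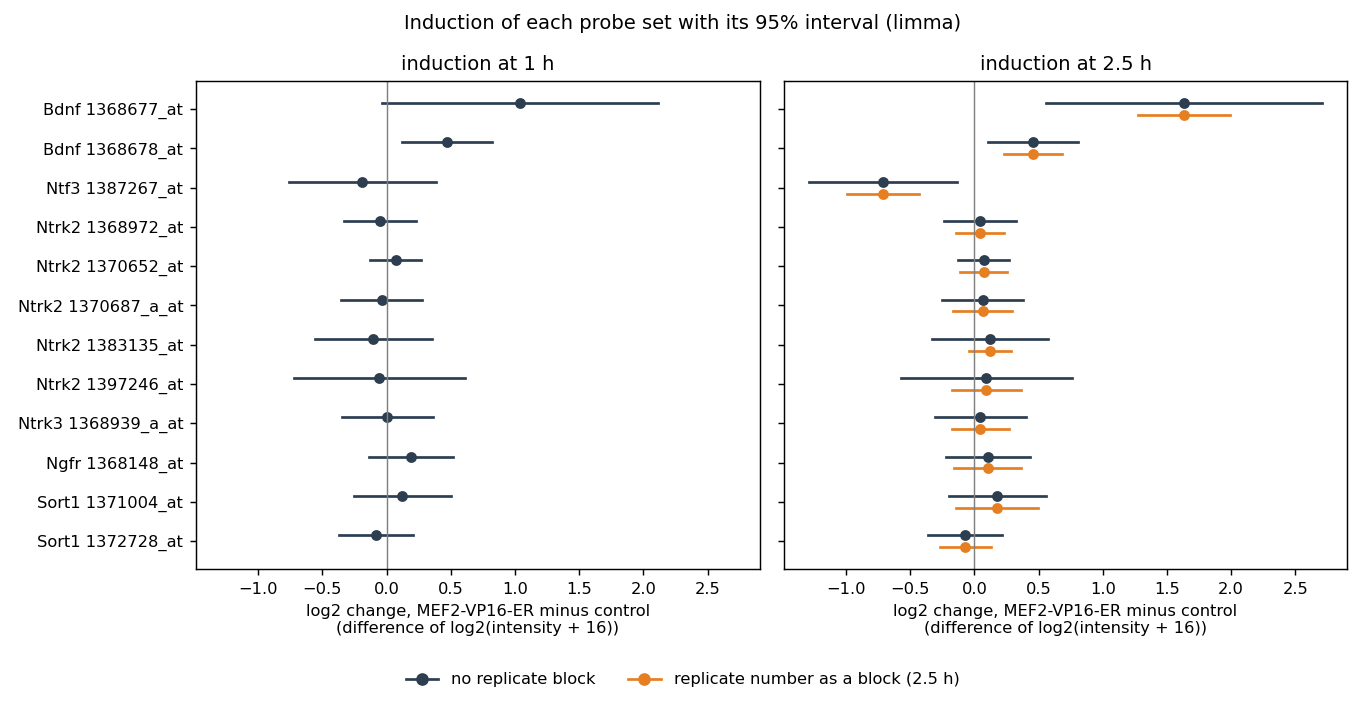
Induction in log2 units (x axis) of the 12 member probe sets at 1 h and 2.5 h with 95% intervals, without and, at 2.5 h, with replicate number as a block. At 2.5 h Bdnf 1368677_at lies at 1.63 and Ntf3 at -0.71, and the 9 receptor probe sets lie between -0.07 and 0.18.

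The other genes of the pathway were followed in 5 lists, each gene by its brightest probe set. Across all 14217 named genes the median induction at 2.5 h was -0.01 log2 units, with 48.0% positive, and 0.177% of all probe sets were called (0.937% with the block). Of 9 measured other ligands and receptors 4 were positive (median -0.01). None was called without the block, and with it 1 fell, Rtn4r, the Nogo receptor, by 1.10 (SE 0.22, limma adjusted p = 0.0712, or 0.00276 with the block). Another Rtn4r probe set was also called with the block, at -0.90, and the other was at -0.37 and was not. In MEF2-VP16-ER neurons alone Rtn4r fell by 0.86 without a block. Lingo1, its coreceptor, was at -0.25, Tnfrsf19 at 0.22 and Sorcs3 at -0.19.

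Of 14 measured genes for cleaving and secreting proneurotrophins, 0 were called with or without the block and 5 were positive (median -0.03). Scg2, a granin of dense-core vesicles, was at 0.53 ± 0.58 (SE), and the convertase gene Pcsk5 at 0.28. Cpe, which encodes carboxypeptidase E, was at -0.09 and Furin at -0.06.

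Of 30 measured adaptors and effectors of Trk and p75 receptors, 0 were called without the block and 9 were positive (median -0.04). With the block Sh2b2, an adaptor of receptor tyrosine kinases, fell by 0.79 (SE 0.17, limma adjusted p = 0.000469 with the block, 0.110 without). Gab1 was at 0.44, Camk2a at 0.35 and Frs3 at -0.29. Of 18 measured transcription factors known at Bdnf promoters, 0 were called without the block and 9 were positive (median -0.01). With it Srf fell by 0.47 on its brightest probe set (limma adjusted p = 0.00810), while its other probe sets were at 0.04 and 0.02. The brightest Mef2a probe set was at 0.37, Bhlhe40 at -0.31 and Crem at 0.23, and none of these was called. The other Mef2a probe sets were at 0.49, 0.67 and 0.47, of which the former pair was called with the block (limma adjusted p = 0.0271 and 0.0470).

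Genes known to respond to BDNF in neurons were the 1 list with called members without the block: of 22 measured, 13 were positive (median 0.06), 3 rose, 0 fell and 19 did not pass at 2.5 h, against 0.177% of all probe sets called. Rgs2, whose protein shortens G-protein signals, rose by 2.11 ± 0.25 log2 units (SE, limma adjusted p = 0.00149), from a mean of 912 ± 113 to 3898 ± 863 in MEF2-VP16-ER neurons (SD, n = 3, 0 h to 2.5 h). Nr4a1, an orphan nuclear receptor, rose by 1.11 (limma adjusted p = 0.0299) and the kinase gene Sgk1 by 0.77 ± 0.11 (SE, limma adjusted p = 0.00506). Fos, at 1.07 ± 0.87 (SE), did not pass. With the block Egr1, at -0.80 (limma adjusted p = 0.0389), and Klf10, at -0.79 (limma adjusted p = 0.0222), fell, which makes 5 of 22 called against 0.937% of all probe sets, and both were named after their values were seen. The list itself was chosen with earlier results of these data known, so setting its counts beside those shares tests nothing. Without replicate 1, or without replicate 2, the count of this list was 0. At 1 h no gene of the 5 lists was called as an induction.

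**Figure D4:**
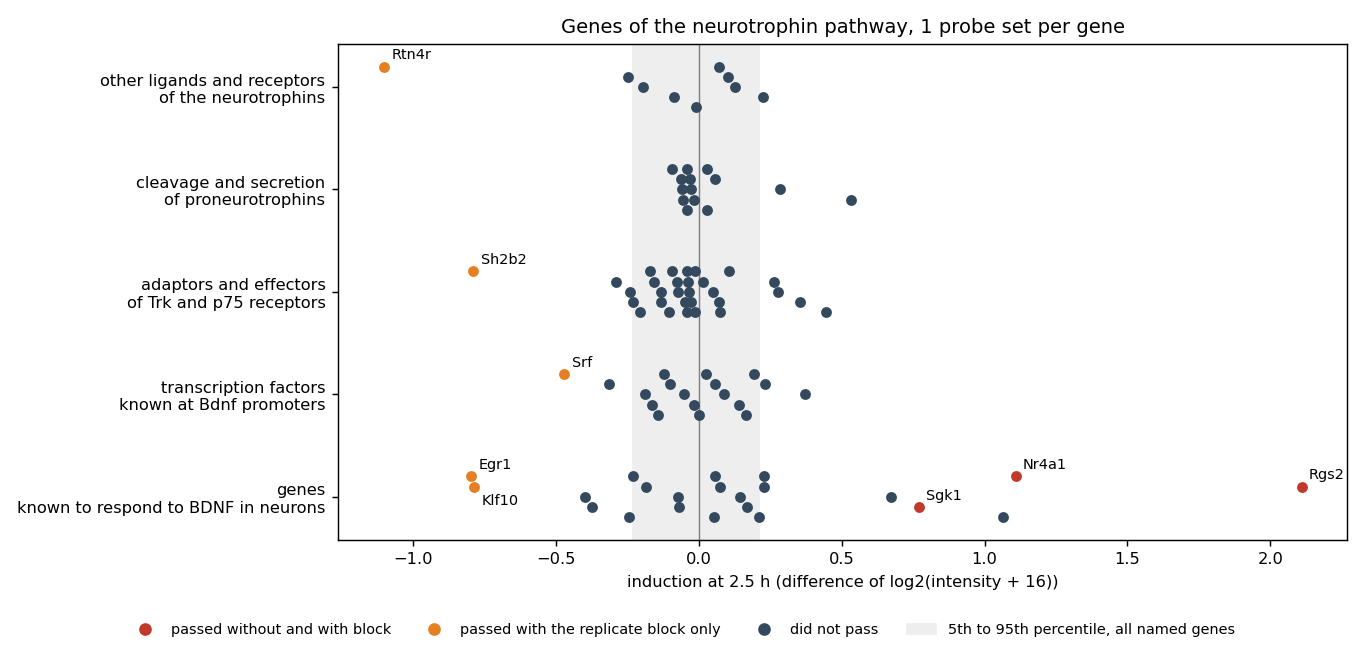
Induction at 2.5 h in log2 units (x axis) of each measured gene of the 5 pathway lists (rows); each point is a gene by its brightest probe set, colours mark calls without and with the replicate block, and the grey band spans the 5th to 95th percentile of all named genes. Rgs2, Nr4a1 and Sgk1, in the list of genes known to respond to BDNF, were called without a block, and Rgs2 lies farthest right at 2.11.

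Genes whose profile was most like that of Bdnf were taken from 12113 candidate probe sets, each gene counted once. They were ranked by the correlation of log2 values over the 18 arrays, a description in which points share replicate number and construct. For Bdnf 1368677_at these were Otud1 (r = 0.967), Klf5 (0.963), Mylip (0.956), Kcna4 (0.951) and Snx18 (0.934). Otud1 encodes a deubiquitinase, Klf5 a zinc finger factor, Mylip a ubiquitin ligase and Kcna4 a potassium channel. After group means were removed, r was 0.974 for Otud1 and 0.758 for Snx18, so these genes also followed Bdnf between replicates. For Bdnf 1368678_at they were Btbd8 (0.903), Klf5 (0.881), Nr4a1 (0.868), Nr4a2 (0.864) and Rgs16 (0.855). Klf5 is the gene on both lists.

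**Figure D5:**
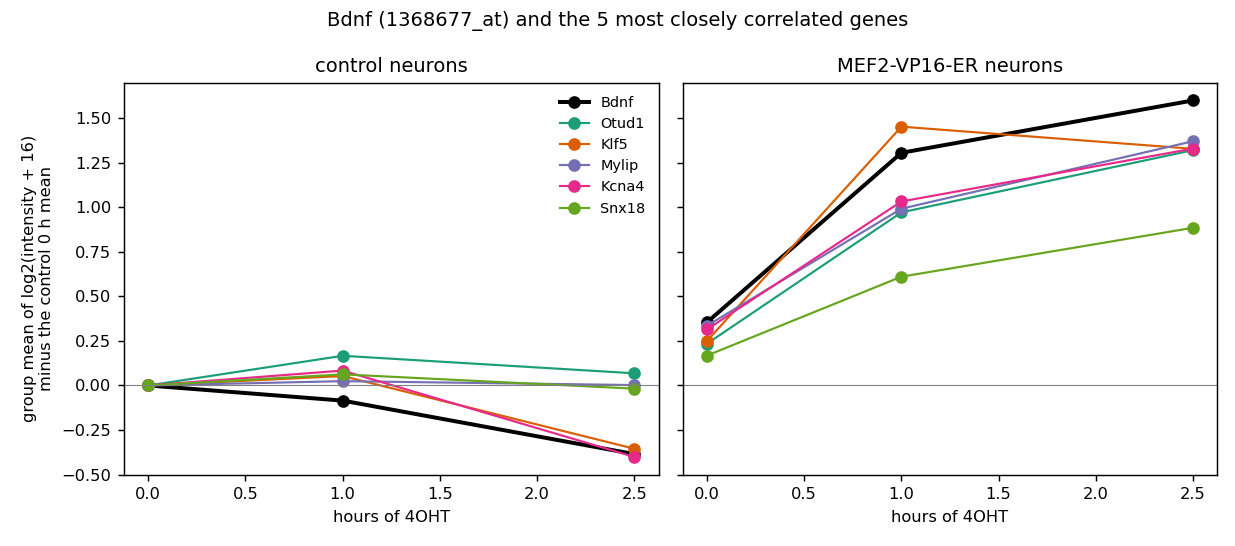
Group means of log2(intensity + 16) minus the control mean at 0 h (y axis, log2 units) against hours of 4OHT (x axis), for Bdnf 1368677_at and the 5 genes most like it, in control (left panel) and MEF2-VP16-ER neurons (right panel). Each of the 6 lines is higher at 1 h and 2.5 h in MEF2-VP16-ER neurons than at any control time.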

How the data were processed

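Of 18 Affymetrix arrays, in 6 groups of 3 from the labels, the deposited table gives 1 linear intensity per probe set and array; how the authors normalized it is not stated in any label or file header read here. No depth applies, so the number of arrays sets the precision. Values were used as deposited, as log2(intensity + 16), with 57 control probe sets left out and no filter. All 18 arrays entered 1 limma model with 6 group means, tested with eBayes. Gene symbols came from the array annotation, 20826 probe sets with 1 symbol, 436 with several and 9780 with none, and 20758 of the first were found in a RefSeq table.

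Members and gene lists were chosen with earlier results of these data known. Named genes were, per list, up to 4 by the size of the induction at 2.5 h, called genes first, and for each Bdnf probe set the 5 most correlated genes. The MEF2 search used the consensus by name.

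Replicate numbers from the labels were checked as a pairing by residual correlations. Over arrays at 0 h and 2.5 h, 18 of 18 same-number pairs had r over 0.1 (0.214 to 0.749). Over 0 h and 1 h 17 of 18 had, the lowest being 0.0677, so 1 h comparisons with MEF2-VP16-ER at 0 h were not treated as paired. Of 1 h against 2.5 h, 18 of 18 had.

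Alternatives were quantile normalization, median centring, pseudocounts 1 and 64, a filter at the median level, eBayes with trend and robust, fewer groups, the block, and leaving out arrays. Steps were tested on simulated data. The fits used limma 3.58.1 in R 4.3.3, and plots used matplotlib 3.10.9 in Python 3.11.15.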

Additional observations from a re-analysis of the deposited data

Results flagged for a closer look

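The change of Bdnf 1368677_at from 0 h to 2.5 h differed between MEF2-VP16-ER and control neurons by 1.63 log2 units once replicate number was a block (limma adjusted p = 0.000131), and it went up in all 3 replicates of one construct and down in all 3 of the other. Without the block that difference did not pass (limma adjusted p = 0.509). The change of Ntf3 differed between the constructs by -0.71 with the block (limma adjusted p = 0.0124) and did not pass without it (limma adjusted p = 0.801).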

How the results depend on the processing

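As reported, with all arrays and no block, no member was called in any of the 8 comparisons. With replicate number as a block, 2 member probe sets were called for the induction at 2.5 h, 3 for MEF2-VP16-ER at 2.5 h against 0 h, and 1, Bdnf 1368677_at (limma adjusted p = 0.00144), for MEF2-VP16-ER at 1 h against 0 h (58 of all 31042 probe sets), where the numbers were not taken as a pairing. For MEF2-VP16-ER at 2.5 h against 0 h, 1 member, Ntf3, was called both with only probe sets above the median level (limma adjusted p = 0.0401) and with eBayes trend and robust (0.0487). Leaving out arrays without a block gave 0 to 1 called members for the induction at 2.5 h and 0 to 2 for MEF2-VP16-ER at 2.5 h against 0 h. In the latter, Bdnf 1368677_at (limma adjusted p = 0.0101) and Bdnf 1368678_at (0.0461) passed without replicate 3, Bdnf 1368678_at (0.0316) without replicate 3 of MEF2-VP16-ER at 2.5 h, and Ntf3 (0.0294) without replicate 2 of that group. With the block, leaving out arrays gave 1 to 3 for the former and 2 to 3 for the latter. Combining the block with the other settings was added after the data were seen. Bdnf 1368677_at stayed called for the induction at 2.5 h in 22 of 22 such settings (1.47 to 1.78 log2 units) and Ntf3 in 20 of 22. The induction of Ntrk3 at 1 h ran from -0.15 without replicate 3 of control at 1 h to 0.11 without replicate 2 of that group, against 0.01 with all arrays, and was not called; the cause was not tested. Uncalled values within 1 SE of 0 were taken to have no direction, which covers 86 sign changes. Of 1188 recomputed values, 1166 kept their direction and side of the threshold, 15 passed newly, 6 no longer passed and 1 reversed. Over all probe sets the count for the induction at 2.5 h was 55, 32 with only the groups compared, 5 to 64 with arrays left out, and 291 with the block. For MEF2-VP16-ER at 2.5 h against 0 h these counts were 245, 75, 52 to 225 and 724. At 1 h the induction had 1 call, and 9 with the block. Ntrk2 1370652_at, Ntrk3 and Ngfr lie below the filter on level, so that setting gives no value for them. Signal near the array's floor limits Ntrk2 1370652_at.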
